A study of Sus scrofa with 20 samples.

Results

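Glycogen synthesis and breakdown was examined through 9 genes: GYS1 and GYS2 (glycogen synthase), PYGL, PYGM and PYGB (glycogen phosphorylase), GBE1 (branching enzyme), UGP2 (which makes the glucose donor), and PPP1R3B and PPP1R3C (subunits that bring a phosphatase to glycogen). They were chosen by symbol for their place in the pathway with earlier results of these data known, the rule used no measured value, and the pig Ensembl identifier of each was looked up. All 9 were among the 31907 rows of the gene count table, and all 9 were among the 16275 genes with enough counts to be tested. The lowest count of any of them in a library was 150, for PYGB.

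The RNA-seq libraries came from backfat and liver of Nanchukmacdon pigs, a Korean breed. Each tissue gave 5 libraries, 1 from each of 5 boars. All samples were titled WT and labelled as 22 months of age and of normal disease state. The paper gives a higher average age for its boars. No transgene or treatment was named for any group. Libraries are named by tissue and by the boar number (65, 67, 69, 71 or 72) in the column names of the count table. The question was which forms of each enzyme the tissues use. Whole tissue was sequenced, so fewer cells of a type and less RNA per cell cannot be told apart.

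Glycogen is a branched polymer of glucose. UGP2 makes UDP-glucose, glycogen synthase adds its glucose to a chain, the branching enzyme opens new chain ends, and phosphorylase releases glucose again as glucose 1-phosphate. Liver stores glycogen to supply the blood with glucose between meals, and it is known for its own synthase (GYS2) and phosphorylase (PYGL), whereas GYS1 and PYGM are known as the muscle forms and PYGB as the brain form. Adipocytes hold a small store, which turns over with feeding.

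Both synthase genes and both targeting subunits lay far apart in the genome (Sscrofa11.1, RefSeq annotation). GYS1 was at chr6:54234600-54250211 on the minus strand and GYS2 at chr5:51862952-51915153 on the plus strand. PPP1R3B was at chr15:56002383-56013477 on the plus strand and PPP1R3C at chr14:103273401-103278757 on the minus strand. The 250 bases before the start of PPP1R3B and of PPP1R3C are shown, since these genes moved together across libraries. They are RefSeq reference sequence, read 5′ to 3′ on the strand of the gene, with every CG dinucleotide in capitals. The windows are chr15:56002133-56002382 for PPP1R3B and chr14:103278758-103279007 for PPP1R3C.
PPP1R3B: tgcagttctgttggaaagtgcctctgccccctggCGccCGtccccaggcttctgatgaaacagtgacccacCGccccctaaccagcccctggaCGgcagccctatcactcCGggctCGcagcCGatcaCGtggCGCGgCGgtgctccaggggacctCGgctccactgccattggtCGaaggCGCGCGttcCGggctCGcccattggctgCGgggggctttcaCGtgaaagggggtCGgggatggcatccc
PPP1R3C: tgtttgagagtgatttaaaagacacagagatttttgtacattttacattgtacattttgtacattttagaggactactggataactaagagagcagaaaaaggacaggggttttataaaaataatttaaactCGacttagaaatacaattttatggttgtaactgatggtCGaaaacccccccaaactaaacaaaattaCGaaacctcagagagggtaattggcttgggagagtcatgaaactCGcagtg

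The PPP1R3B window held 21 CG dinucleotides at a GC content of 68.0%, and the PPP1R3C window held 4 at 34.8%. Both windows lie before the RefSeq gene start, and whether transcription starts there in these tissues was not tested. Among 19555 pig promoter windows of 250 bases, with a median of 12 CG dinucleotides and 57.6% GC, 72.3% held fewer than PPP1R3B and 21.0% held fewer than PPP1R3C. Letters of known elements were searched on both strands. TATAAA, found in 9.8% of all windows, was in that of PPP1R3C. CACGTG, found in 6.4%, and GGGCGG, found in 45.9%, were in that of PPP1R3B. Neither TGACGTCA, in 1.7% of windows, nor CAAAGTCCA, in 0.3%, was in either. Such matches describe letters only, and methylation of these windows was not analysed here.

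Liver and backfat differed in most of the 9 genes. In the edgeR quasi-likelihood fit over the whole table, with p-values adjusted after Benjamini and Hochberg (FDR), GYS1 and GBE1 were higher in backfat, and GYS2, PYGL, PYGB, UGP2, PPP1R3B and PPP1R3C were higher in liver. These 8 genes at an FDR of at most 0.05 compare with 55.0% of all genes tested, of which 28.0% were higher in backfat and 27.0% higher in liver. With a log2 fold change of at least 2 as well, which 22.3% of genes passed (11.1% higher in backfat, 11.2% higher in liver), the single gene left was GYS2, and without liver 67 PPP1R3B and PPP1R3C passed as well (3 genes). With boar as a replicate block in the edgeR fit, or by limma-voom, 3 genes in place of 6 were higher in liver, since PYGB, PPP1R3B and PPP1R3C no longer passed. The median log2 fold change of backfat over liver was -1.56 over the 9 genes and 0 over all genes tested. In 5 of the 9 genes no backfat library overlapped any liver library, against 42.6% of all genes tested. Counts were scaled to CPM (read counts relative to the library total) with TMM factors, and scaling by library size alone moved the median over all genes to a log2 fold change of 0.71 and the split of these genes to 3 higher in backfat and 3 in liver. Directions below are relative to that median, and a gene whose sign turned under that scaling is named where it is described.

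**Figure D1:**
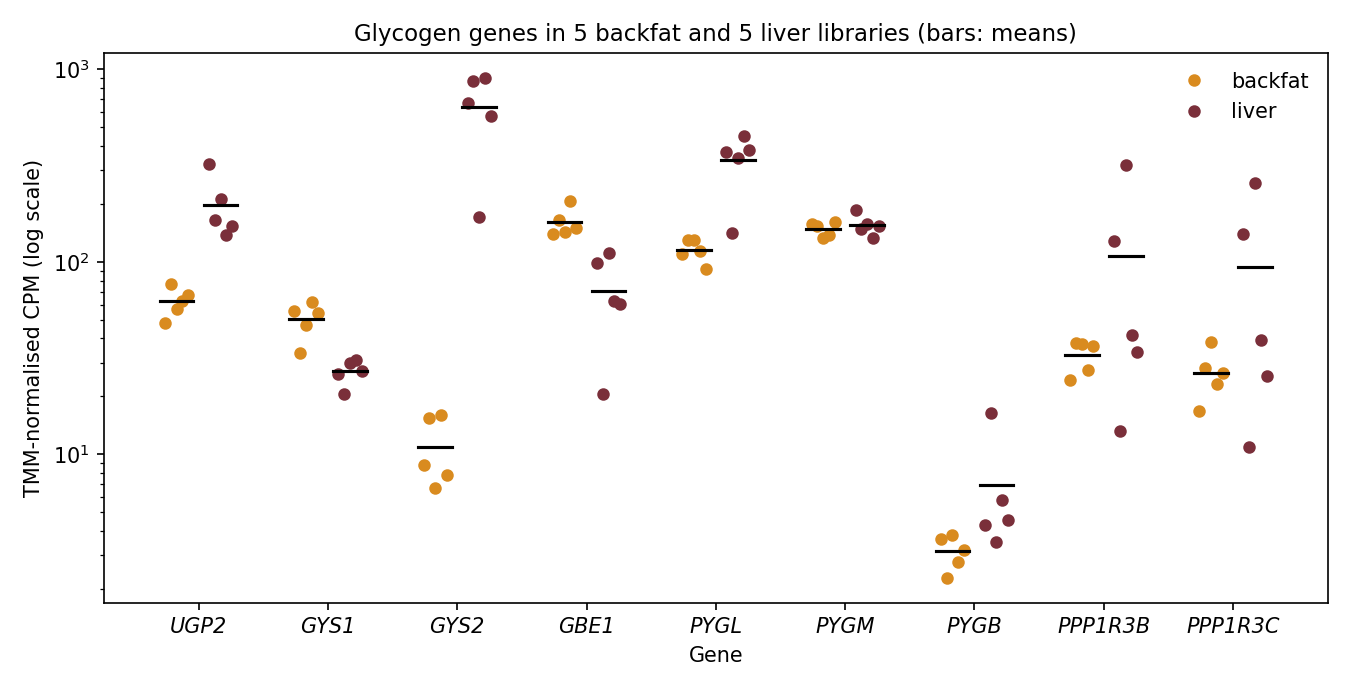
Level of each of the 9 genes in TMM-normalised CPM on a log scale, 1 point per library (5 backfat, 5 liver) with bars at the means. GYS2 stands furthest apart, at 6.68 to 16.0 CPM in backfat and 171 to 903 CPM in liver, while the points of PYGM, PYGB, PPP1R3B and PPP1R3C overlap between tissues.

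GYS2, the liver form of glycogen synthase, had the largest fold between tissues of the 9 genes. In liver it stood at 666, 876, 171, 903 and 574 CPM in boars 65, 67, 69, 71 and 72. In backfat it stood at 8.84, 15.4, 6.68, 16.0 and 7.86 CPM in the same order. Every liver library was above every backfat library, and liver 69 was the lowest of the livers by a wide margin. The level was 58.2-fold lower in backfat (log2 fold change -5.86, SE 0.50, FDR 9.23e-07), and it passed in every setting tried. Backfat was not without GYS2, which had at least 397 counts in every library. Of the backfat libraries, that of boar 69 had the most RNA of ALB, the hepatocyte marker albumin. Its ALB was at 36.4 CPM against 0.126 to 0.351 CPM in the other 4, and its GYS2 was the lowest. The part of liver RNA in the GYS2 level of backfat was not tested.

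GYS1, the form found in muscle and most other tissues, ran the other way. It stood at 55.6, 33.6, 46.9, 62.2 and 54.2 CPM in backfat and at 26.2, 20.5, 29.9, 31.1 and 27.3 CPM in liver. The lowest backfat library, that of boar 67, was above the highest liver library, that of boar 71, and GYS1 was higher in backfat in all 5 boars. The difference was 1.87-fold (log2 fold change 0.90, SE 0.19, edgeR FDR 0.00121). A RefSeq non-coding gene, LOC110261018, overlaps GYS1 on the opposite strand, and counting was not stated to use strand, so its reads could not be told apart from those of GYS1.

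Synthase differed in its make-up between tissues. The ratio of GYS2 to GYS1 was taken within each library, where it does not depend on scaling. Per kilobase of counted exon length, it was 0.242, 0.699, 0.217, 0.392 and 0.220 in backfat and 38.6, 65, 8.69, 44.2 and 32 in liver. Backfat had more GYS1 than GYS2 in each of its libraries and liver more GYS2 than GYS1 in each of its own. The ratio was 99.5-fold lower in backfat (difference in mean log2 ratio -6.64, exact permutation test, two-sided, p = 0.00794, or 0.0397 when adjusted over 5 ratios). That p is the smallest that the rearrangements of 5 and 5 libraries allow. With libraries paired by boar, the sign-flip test returned an exact p of 0.0625, which is the lowest that 5 pairs allow. As a share of synthase counts per kilobase, GYS2 made up 24.9% ± 10 (SD, n = 5) in backfat and 96.1% ± 3.62 in liver. Backfat 67 had the highest share of its tissue at 41.1%, and liver 69 had the lowest of its own at 89.7%.

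**Figure D2:**
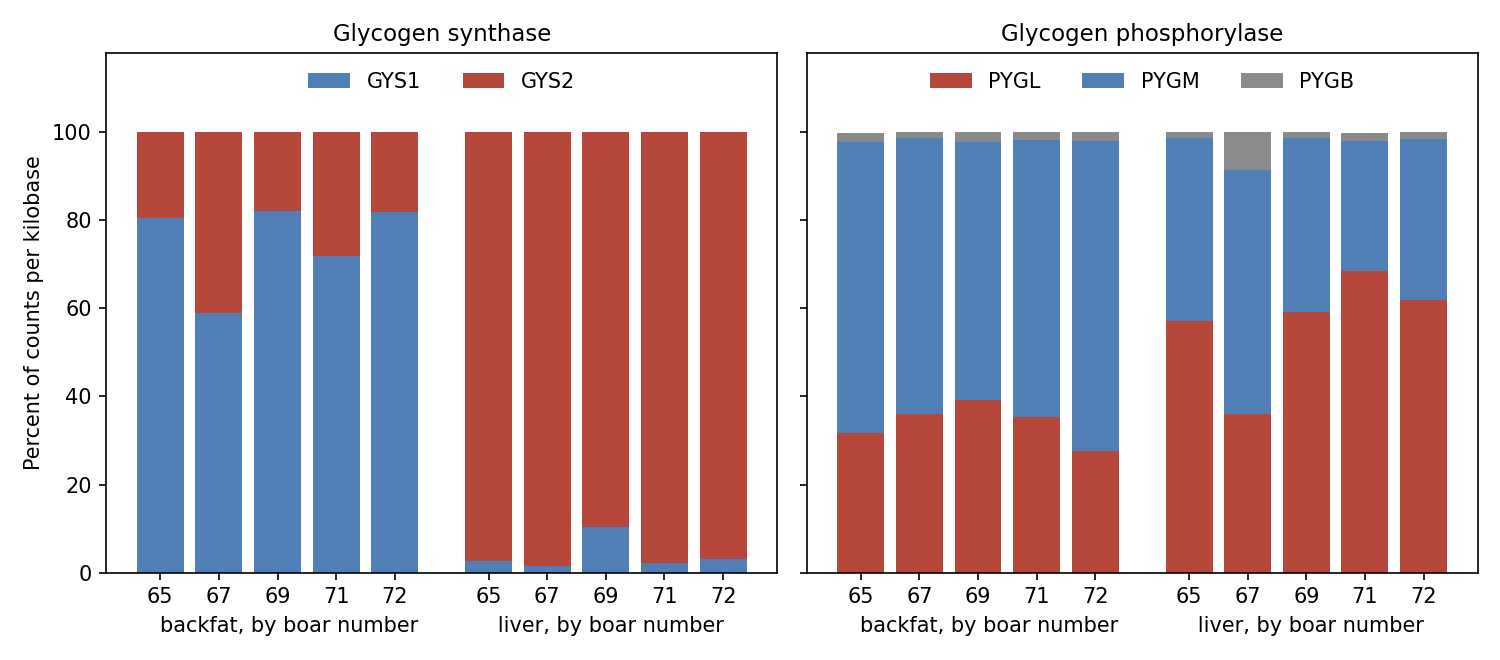
Share of each form in the counts per kilobase of glycogen synthase (left) and glycogen phosphorylase (right), 1 stacked bar per library in percent. GYS2 takes 17.8 to 41.1% of synthase in backfat and 89.7 to 98.5% in liver, whereas phosphorylase has a PYGM share of 58.5 to 70.5% in backfat and 29.6 to 55.3% in liver.

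Phosphorylase differed less than synthase. PYGL, the liver form, stood at 374, 141, 346, 449 and 383 CPM in liver and at 111, 130, 130, 114 and 92.3 CPM in backfat. No libraries overlapped, although liver 67 lay close to the backfat range. PYGL was 2.94-fold lower in backfat (log2 fold change -1.56, SE 0.28, edgeR FDR 0.000455), and it was lower in backfat in all 5 boars. Without liver 67 the log2 fold change was -1.79 (edgeR FDR 4.04e-06). PYGL (chr1:180645849-180704124, minus strand) overlaps ABHD12B on the opposite strand, and its counted exon length of 10563 bases was 4.12 times that of its RefSeq model. That model holds coding sequence alone, 2565 bases.

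PYGB, the brain form, had the lowest mean of the 9 genes per kilobase in both tissues, although in liver 67 its 3.17 CPM per kilobase was above GBE1 (2.38) and PPP1R3B (2.49). It stood at 3.63, 2.29, 3.82, 2.76 and 3.17 CPM in backfat and at 4.31, 16.4, 3.50, 5.81 and 4.58 CPM in liver. Liver 67 was far above all other libraries, and liver 69 lay inside the backfat range. The edgeR fit gave a log2 fold change of -1.14 (SE 0.41, FDR 0.0304), but without liver 67 it was -0.58 (FDR 0.0574), and without backfat 67, 71 or 72 it was -1.04, -1.09 and -1.14 (FDR 0.0712, 0.0645 and 0.0559). With boar as a replicate block the edgeR value was -0.88 (FDR 0.112). Liver 67 also had 44.48% of its counts in mitochondrial genes, against 6.384 to 20.25% in the other libraries. Its summed level of 7 hepatocyte markers, scaled without TMM factors to all counts, mitochondrial ones included, was 20198 CPM. The other livers had 64154 to 84491 CPM. With TMM factors, each of these markers except APOA1 was lowest in liver 67 among the livers. APOA1 was at 8255 CPM in liver 67 and 7790 CPM in liver 65. With the mitochondrial genes removed from all libraries, PYGB had a log2 fold change of -1.17 (edgeR FDR 0.0256). Liver 67 stayed in that fit, so the fit does not address the high PYGB of that library. The part of the mitochondrial share or of the lower hepatocyte sum in the PYGB level was not tested.

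The row named PYGM, the muscle form, was level between tissues. It stood at 158, 154, 133, 138 and 161 CPM in backfat and at 186, 148, 158, 133 and 155 CPM in liver, with full overlap. The log2 fold change was -0.07 (SE 0.16, edgeR FDR 0.737), with the sign turned by scaling to library size alone (0.63, FDR 0.0202) and by leaving out liver 65 (0.02, FDR 0.931). What this row counts is uncertain. Its counted exon length was 7229 bases, 2.24 times the 3233 bases of the RefSeq PYGM model (chr2:7409330-7421256, plus strand). SF1, a splicing factor gene, ends 4636 bases before PYGM on the same strand (chr2:7391295-7404693) and has no row of its own name, and the PYGM row sits directly between those of MAP4K2 and RASGRP2. The merged exons of SF1 and PYGM together come to 5999 bases. Whether reads of SF1 were counted in the row was not tested.

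Skeletal muscle RNA offered a further comparison, since PYGM is a muscle gene. ACTA1, the skeletal muscle actin, ranged from 2.98 CPM in backfat 72 to 299 CPM in backfat 65, and from 0.221 CPM to 0.798 CPM in 4 livers with 106 CPM in liver 67. Over that range of ACTA1 the PYGM row stayed between 133 and 186 CPM, and its highest value was in liver 65, where ACTA1 was 0.798 CPM. Of 11 skeletal muscle markers listed, 4 were in the table. Their summed level was 13.4 to 588 CPM in backfat, 123 CPM in liver 67 and 0.307 to 1.26 CPM in the other livers. That sum was scaled by library total alone, without the TMM factors used for ACTA1.

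**Figure D3:**
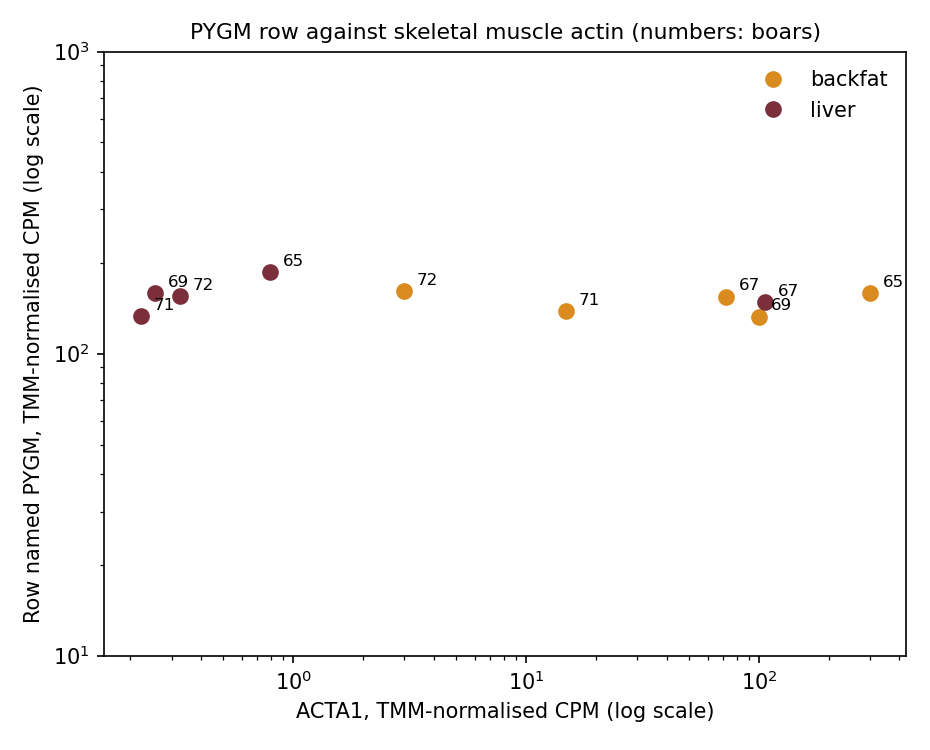
Level of the row named PYGM against that of ACTA1, the skeletal muscle actin, both in TMM-normalised CPM on log scales, 1 point per library. ACTA1 spans 0.221 to 299 CPM while the PYGM row stays between 133 and 186 CPM.

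With PYGM read as named, 2 of the 3 phosphorylase ratios missed an adjusted p of 0.05. PYGL to PYGM per kilobase had a geometric mean of 0.527 in backfat and 1.39 in liver, a difference of -1.40 in mean log2 ratio (exact permutation test p = 0.0159, adjusted p = 0.0397), with an exact sign-flip p of 0.0625 over pairs of libraries from the same boar. The ranges overlapped, because liver 67 at 0.652 lay among the backfat libraries. PYGM to PYGB was 34.3 in backfat and 19.0 in liver (difference 0.85, exact permutation p = 0.0635, adjusted p = 0.106). PYGL to PYGB was 18.1 in backfat and 26.5 in liver (difference -0.55, exact permutation p = 0.5), and without liver 67 the difference was -1.22 (exact permutation p = 0.0159). The share of PYGL in phosphorylase counts per kilobase was 34.0% ± 4.47 (SD, n = 5) in backfat and 56.6% ± 12.2 in liver, and that of PYGB was 1.90% ± 0.401 and 2.90% ± 3.18. The liver share of PYGB was 8.58% in liver 67 and had a mean of 1.48% without that library, below the backfat mean. These shares rest on the length given to each gene: with RefSeq transcript lengths, PYGL made up 48.9% in backfat and 70.7% in liver. The RefSeq model of PYGL is coding sequence alone (2565 bases). That of PYGM holds 2529 coding bases of 3233, and that of PYGB 2532 of 5240.

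The enzymes before and after chain growth also differed in direction. UGP2, which makes UDP-glucose, stood at 322, 164, 212, 137 and 153 CPM in liver and at 48.4, 76.6, 57.0, 62.8 and 67.6 CPM in backfat. All livers were above all backfat libraries, with liver 65 highest, and the level was 3.16-fold lower in backfat (log2 fold change -1.66, SE 0.25, edgeR FDR 0.000106). UGP2 (chr3:77975450-78032471, minus strand) overlaps VPS54 and LOC106507380 on the opposite strand. GBE1, the branching enzyme (chr13:173634401-173909646, plus strand), was the reverse. It stood at 140, 165, 143, 207 and 150 CPM in backfat and at 98.4, 20.5, 111, 62.4 and 60.2 CPM in liver. No libraries overlapped, liver 67 was lowest, and the level was 2.28-fold higher in backfat (log2 fold change 1.19, SE 0.35, edgeR FDR 0.0123), higher in all 5 boars.

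PPP1R3B and PPP1R3C, which hold protein phosphatase 1 at the glycogen particle where it activates synthase and inactivates phosphorylase, varied widely between livers. PPP1R3B stood at 128, 13.3, 318, 41.7 and 34.0 CPM in liver and at 24.5, 38.1, 37.4, 27.3 and 36.4 CPM in backfat. PPP1R3C stood at 140, 10.9, 257, 39.3 and 25.6 CPM in liver and at 16.7, 28.0, 38.4, 23.2 and 26.4 CPM in backfat. Both were highest in liver 69, next in liver 65 and lowest in liver 67, and the livers spanned the whole backfat range. In boars 67 and 72 both genes were higher in backfat than in liver.

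The tissue difference of both genes was large in some livers and absent or turned in others. For PPP1R3B the log2 fold change was -1.71 (SE 0.66, edgeR FDR 0.0446), and without liver 69 it was -0.74 (FDR 0.221). For PPP1R3C it was -1.83 (SE 0.68, edgeR FDR 0.0370), and without liver 69 it was -1.03 (FDR 0.146). Leaving out liver 65, or any 1 backfat library other than backfat 69 for PPP1R3C, took the FDR to between 0.0668 and 0.0906 while the fold hardly moved (-1.62 to -1.76 for PPP1R3B, -1.65 to -1.85 for PPP1R3C). Without liver 67 the values were -2.02 (FDR 0.0074) and -2.15 (FDR 0.00582), and without liver 71 or 72 both genes also passed. With boar as a replicate block the edgeR values were -0.90 (FDR 0.269) and -1.05 (FDR 0.206), and by limma-voom they were -0.89 (FDR 0.266) and -1.03 (FDR 0.218). The ratio of PPP1R3B to PPP1R3C was nearly level, at a geometric mean per kilobase of 0.791 in backfat and 0.718 in liver (difference in log2 ratio 0.14, exact permutation p = 0.341, adjusted p = 0.427).

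**Figure D4:**
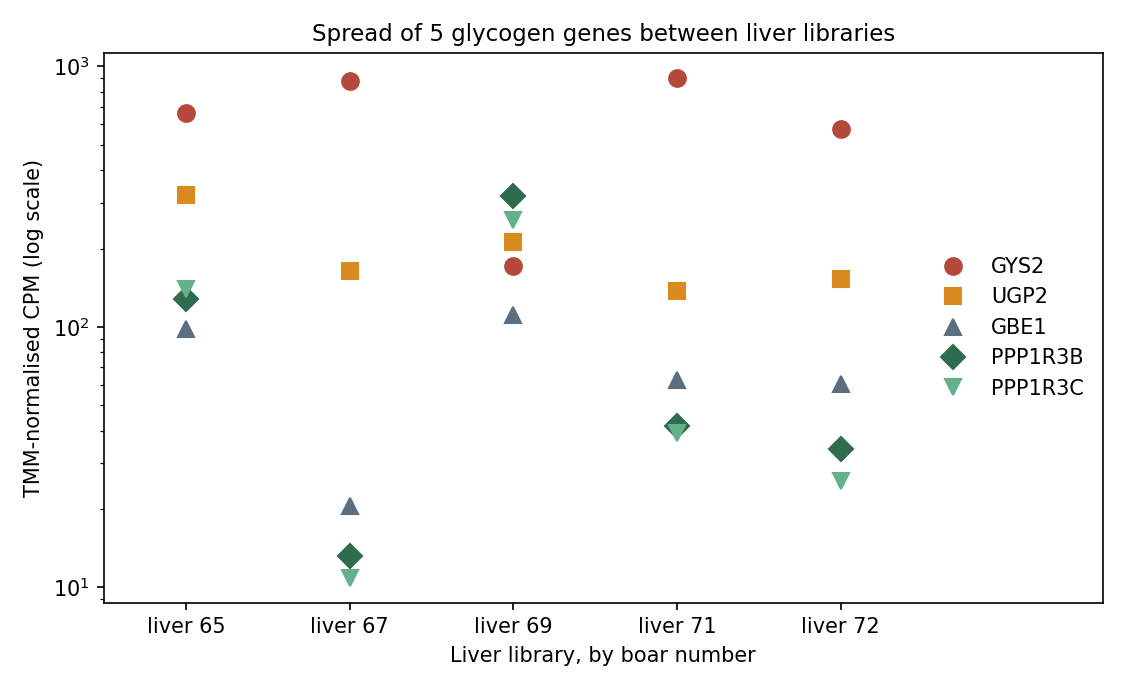
Level of GYS2, UGP2, GBE1, PPP1R3B and PPP1R3C in the 5 liver libraries, in TMM-normalised CPM on a log scale. PPP1R3B and PPP1R3C run from 13.3 and 10.9 CPM in liver 67 to 318 and 257 CPM in liver 69, the library where GYS2 is lowest at 171 CPM.

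Some pairs of these genes varied together or in opposite ways within tissues, as a description over 10 libraries that share 5 boars, each value taken as its deviation from the tissue mean of log2 CPM. Pearson's r, given for the pairs named after their values were seen, was 0.987 between PPP1R3B and PPP1R3C and 0.868 between GBE1 and PPP1R3B. It was -0.945 between PYGB and GBE1, -0.818 between PYGL and PYGB, and -0.708 between GYS2 and PPP1R3B. Liver 67 had the highest PYGB and the lowest GBE1 and PYGL of the livers, and no r was computed without it. Pearson's r need not describe the other libraries. The r was near 0 for some other pairs, such as PYGL and PYGM (-0.046). It was far from 0 for others, such as GBE1 and PPP1R3C (0.865) and PYGB and PPP1R3B (-0.789).

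Among the 11067 genes whose count was 10 or more in each library, the genes most like each synthase and phosphorylase gene by the same r were listed, with no test. For GYS1 these were CARHSP1 (0.945) and FAAH (0.928), and for GYS2 they were ACRBP (0.921), PER1 (0.908) and EIF4E2 (0.900). For PYGL they were TMEM59 (0.983), MAPKAP1 (0.981) and ADIPOR2 (0.979). The PYGM row was followed by NIF3L1 (0.980), SLC27A1 (0.919) and TCF7L2 (0.899), and PYGB by AFAP1L1 (0.991), PLXNB3 (0.978) and JAG2 (0.974). The r values of PYGB include liver 67, where PYGB stood apart, and were not computed without it.

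Per kilobase of counted exon, the order of levels differed between tissues. In liver GYS2 led with a mean of 186 CPM per kilobase, followed by UGP2 at 36.8, PYGL at 32.1, PPP1R3C at 28.3, the PYGM row at 21.6, PPP1R3B at 20.1, GBE1 at 8.18, GYS1 at 5.18 and PYGB at 1.34. Each of these overlapped the next in range except GYS1, all of whose libraries were above those of PYGB. In backfat the PYGM row led at 20.6 CPM per kilobase and overlapped GBE1 at 18.7, and on these lengths the ranges of both were clear of the rest. UGP2 at 11.6, PYGL at 10.9, GYS1 at 9.70, PPP1R3C at 7.94, PPP1R3B at 6.16 and GYS2 at 3.20 CPM per kilobase each overlapped the next, and PYGB at 0.608 lay below all of them. The order rests on counted lengths, which were 2.24, 2.69 and 4.12 times the RefSeq ones for PYGM, GBE1 and PYGL. The RefSeq length of PYGL covers coding sequence alone. With RefSeq transcript lengths, an alternative chosen after the data were seen, GBE1 at 50.2, the PYGM row at 46.1 and PYGL at 44.9 CPM per kilobase had the highest means in backfat, and GYS2 at 261 and PYGL at 132 in liver.

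Other genes of the pathway were taken from a list of 31, of which 26 were in the table and 25 were tested. Of the 25, 9 were higher in backfat, 8 were higher in liver and 8 did not pass an edgeR FDR of 0.05, with a median log2 fold change of 0.10 and 10 genes without overlap between tissues, against 42.6% of all genes tested. Scaled by library size alone, 14 were higher in backfat and 2 in liver. The 17 of 25 that passed in either direction compare with the 55.0% of all genes given above. PHKG1 and PHKA2 also passed the fold threshold, 2 of 25 against 22.3% of all genes tested. Scaled by library size alone, PHKA2 had a log2 fold change of -1.85 and no longer passed it. Both belong to phosphorylase kinase, which switches phosphorylase on.

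Subunits of that kinase come in forms named for muscle and liver. PHKG1, the muscle form of the catalytic subunit, ranged from 10.3 to 18.6 CPM in backfat and from 1.33 to 2.54 CPM in liver (log2 fold change 3.06, SE 0.28, edgeR FDR 1.39e-06). In backfat PHKG1 was 17.5, 18.6, 16.2, 10.3 and 11.3 CPM in boars 65, 67, 69, 71 and 72. ACTA1 was 299, 72.1, 99.4, 14.8 and 2.98 CPM in the same order. Among livers PHKG1 was highest in liver 67, where ACTA1 was 106 CPM. The part of skeletal muscle RNA in the PHKG1 level was not tested. PHKA2, the liver form of the large regulatory subunit, ranged from 7.84 to 11 CPM in backfat and from 47.6 to 60.3 CPM in liver (log2 fold change -2.59, SE 0.16, edgeR FDR 5.01e-08). The partner forms, named here after their values were seen, stood on the other side. PHKA1, the muscle form, had a log2 fold change of 1.66 (SE 0.18, edgeR FDR 7.68e-06), and PHKG2, the liver form, one of -0.94 (SE 0.25, edgeR FDR 0.0059). None of these 4 genes overlapped between tissues, and PHKB, the shared beta subunit, did not pass (log2 fold change 0.13, SE 0.21, edgeR FDR 0.617).

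Genes that start a glycogen chain were also named after their values were seen. GYG1 and GYG2, the glycogenins on which a chain is begun, were both higher in backfat, with log2 fold changes of 1.41 (SE 0.20, edgeR FDR 7.57e-05) and 1.84 (SE 0.16, edgeR FDR 9.14e-07) and no overlap.

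**Figure D5:**
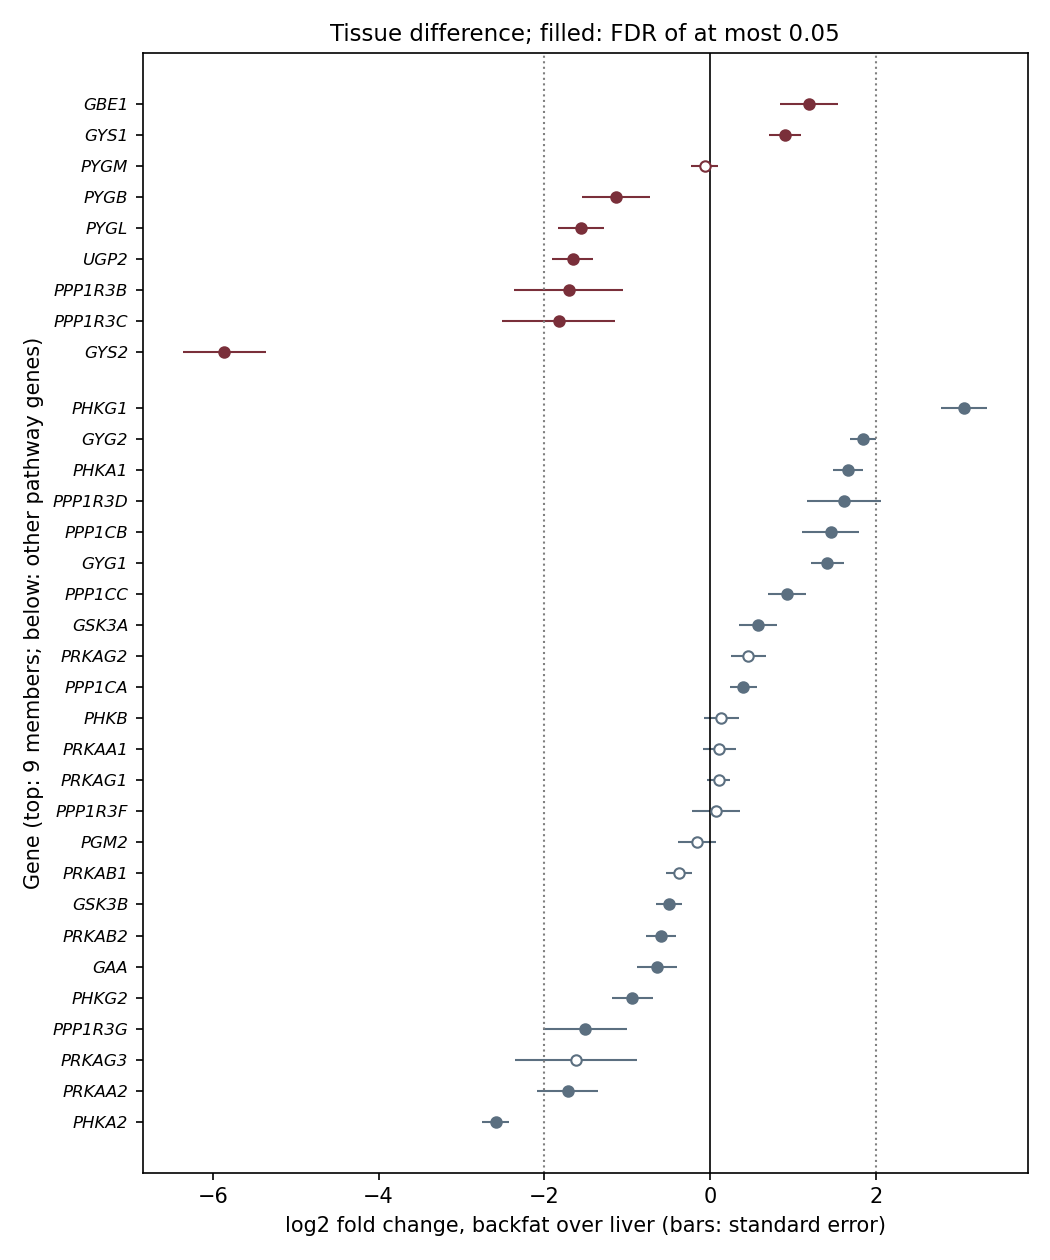
log2 fold change of backfat over liver with its standard error for the 9 genes (top) and other pathway genes tested (below), filled where the edgeR FDR was at most 0.05, with dotted lines at -2 and 2. GYS2 at -5.86, PHKG1 at 3.06 and PHKA2 at -2.59 lie beyond the dotted lines.

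As a check of the tissues, 6 adipocyte markers summed to 14614 to 20567 CPM in backfat and 7.18 to 8.79 CPM in liver. The sum of 7 hepatocyte markers was 202 to 703 CPM in backfat and 20198 to 84491 CPM in liver. Both sums were scaled by library total alone, without TMM factors. Most of the hepatocyte sum in each backfat library was APOA1, at 9614 to 28654 counts, where ALB had 7 to 2162 counts. The 5 backfat libraries held 45157114 to 61772737 counts each and the 5 liver libraries 43820042 to 53768601. The hepatocyte sum was highest in backfat 69 among the backfat libraries and lowest in liver 67 among the livers. Without backfat 65, backfat 69 and liver 67, a choice made after the data were seen, 2 genes were higher in backfat and 6 in liver at an edgeR FDR of at most 0.05, and GYS2 had a log2 fold change of -5.46 (FDR 8.25e-05).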

How the data were processed

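The 9 genes and the lists beside them were chosen with earlier results of these data known. Reads were trimmed with Trimmomatic, aligned with HISAT2 and counted by the authors with featureCounts 2.0.1 on the annotation of Ensembl release 99. The deposited values are raw counts per gene, and no strand setting was given in the counting command. The counts were fitted with edgeR 4.0.16 under R 4.3.3 (filterByExpr with tissue as the group, TMM, glmQLFit and glmQLFTest, tissue as the only term), with Benjamini-Hochberg adjustment over 16275 genes. The script was tested on simulated data. The standard error of a log2 fold change is that change over the root of its F statistic. Calls were made at an FDR of at most 0.05, alone or with a log2 fold change of at least 2. DESeq2 1.42.0, limma 3.58.1 (voom) and other settings were alternatives. Ratios of forms were taken per library as log2 of counts with 0.5 added, and their tissue means were tested by exact permutation over all arrangements of the libraries, two-sided, with adjustment over 5 ratios. Values per kilobase use the exon length of the count table. Promoter windows were read from RefSeq's Sscrofa11.1, the build of the files.

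The text names all 9 genes, other pathway genes past both thresholds, and the 3 genes most like each synthase and phosphorylase gene. A pathway gene, a gene of that last list and some promoter windows are not reported here. Genes outside that rule are said to be chosen after their values were seen.

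Boar numbers come from the column names, and the replicate numbers of the labels could not be matched to them. Deviations of backfat and liver from their tissue means correlated by 0.226, 0.095, 0.036, 0.173 and 0.121 in boars 65, 67, 69, 71 and 72. Both tissues came from the same boars, so blocked values are given where they change a call. The bisulfite call counts deposited for the same tissues carry no genomic position and were not used here.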

Additional observations from a re-analysis of the deposited data

Results flagged for a closer look

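Of 28 groups of 5 libraries examined, 2 held a value that stood apart from the others, and chance alone sets about 1 in 20 such groups apart. In liver, PYGB was highest in liver 67, at 16.4 CPM with the next library at 5.81 CPM and the lowest at 3.50 CPM, a gap of 0.82 of the whole range. The log2 ratio of PYGL to PYGB per kilobase was lowest in the same library, at 2.07 with the next at 5.23 and the highest at 5.59, a gap of 0.898 of the range. Both values share the PYGB count of that library.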

How the results depend on the processing

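GYS2, PHKG1 and PHKA2 kept their direction and an FDR of at most 0.05 in all 20 alternatives, with GYS2 between -6.11 and -5.09. GYS1, PYGL, GBE1 and UGP2 did so in 19, and missed only the test against a log2 fold change of 2 (glmTreat, FDR 1.0). PYGB, PPP1R3B and PPP1R3C kept their direction in all 20 but lost their call in 8, 11 and 10. The count of the 9 genes higher in liver went from 6 to 3 with library size alone, with limma-voom and with the replicate block by boar, and to between 3 and 6 when 1 library was left out (3 without backfat 67, 71 or 72). With the fold threshold it was 1 to 3 when 1 library was left out (3 without liver 67, 2 without liver 71 or 72), and 2 without backfat 65, backfat 69 and liver 67 together. With library size alone, the other pathway genes gave 14 higher in backfat and 2 in liver, 6 and 0 of them past the fold threshold, and PYGM turned to 0.63. PYGM lay between -0.15 and 0.02 when 1 library was left out. In the same leave-outs 5 to 9 other pathway genes were higher in liver (5 without liver 65). Past the fold threshold, 1 to 2 were higher in backfat (2 without liver 67) and 1 to 2 in liver (2 without backfat 71), with 3 in liver without the 3 libraries together. The cause of these changes was not tested. With the replicate block (a sign-flip test over pairs), the ratios of GYS2 to GYS1 (-6.64) and of PYGL to PYGM (-1.40) no longer passed, at an exact p of 0.0625. That is the smallest 5 pairs allow, so no ratio could pass, and the differences equal the unpaired ones by construction. PYGL to PYGB lay between -1.22 and -0.34 (-1.22 without liver 67) when 1 library was left out, and was -1.08 without the 3 libraries. PYGM to PYGB lay between 0.46 and 1.04, and passed unadjusted without liver 65 (1.02) or liver 69 (1.04). With RefSeq transcript lengths the phosphorylase shares were 48.9% PYGL, 50.4% PYGM and 0.656% PYGB in backfat, and 70.7% PYGL and 28.4% PYGM in liver. With no length correction they were 43.0%, 55.8% and 1.18% in backfat. The RefSeq length of PYGL covers coding sequence alone. Apart from these ratios, the replicate block changed the calls of PYGB, PPP1R3B and PPP1R3C and of none of the other 6 of the 9 genes. With 5 libraries a tissue, small differences may have gone undetected.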

Other observations

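PPP1R3A, the targeting subunit known from skeletal muscle, was in the count table and had too few counts to be tested. It had 6, 3, 2, 1 and 0 counts in the backfat of boars 65, 67, 69, 71 and 72 and 15 counts in liver 67, with 0 in the other 4 livers. Liver 67 was also the liver with the most ACTA1, at 106 CPM. PRKAG3, the AMP kinase subunit known from skeletal muscle, was at 0.259 to 2.07 CPM in backfat, at 9.88 CPM in liver 67 and at 0.828 to 2.01 CPM in the other 4 livers, and did not pass (log2 fold change -1.62, SE 0.74, edgeR FDR 0.0820). PRKAA2, a catalytic subunit of the same kinase, was higher in liver without overlap, at 0.661 CPM ± 0.156 in backfat and 2.18 CPM ± 0.895 in liver (log2 fold change -1.72, SE 0.37, edgeR FDR 0.00158). These genes were chosen after their values were seen.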
